A study of Mus musculus with 46 samples.

Results

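Mature migratory dendritic cells are the activated form of dendritic cell that leaves a tissue through lymphatic vessels and presents antigen to T cells in the lymph node. On maturation these cells gain the chemokine receptor CCR7, which guides them along its ligands CCL19 and CCL21 toward the node, and they secrete the CCR4 ligands CCL17 and CCL22. They also raise the actin-bundling protein fascin, the surface protein CD83 and the NF-kB subunit RelB, and in tumors cells with this program can present antigen and checkpoint ligands to T cells.

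The 8 genes described here, chosen by symbol from the rows of the expression table, were the receptor gene Ccr7, the chemokine genes Ccl19, Ccl21a, Ccl22 and Ccl17, and Fscn1, Cd83 and Relb. They were 8 of 48795 genes measured by bulk RNA-seq in 46 samples. The samples were 3 cultures of MC-38, a mouse colon carcinoma line, and 43 subcutaneous tumors of that line grown in female mice aged 8 to 10 weeks. All values were FPKM, fragment counts scaled to transcript length and to the fragments mapped in the library, so levels of different genes can be set side by side per length of transcript.

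C57BL/6NTac mice gave 3 untreated tumors labelled baseline, 5 tumors after 1 dose of isotype control antibody and 5 after 1 dose of the PD-1 antibody muDX400 at 5 mg/kg (4 day), and 5 tumors each after 2 doses of either antibody (8 day). The second model gave 10 tumors from mice labelled PD-1cKO and 10 from littermates labelled WT, all at 28 day. The labels' 4 and 8 day count from the first dose, while 28 day counts from the implant of the cells, and the sources disagree on the day at which the tumors of the second model were excised, so the labelled day is used. PD-1cKO mice carried floxed Pdcd1, the gene of PD-1, and a tamoxifen-inducible Cre driven from Rosa26, which is active in most cell types, so the deletion was not limited to T cells. The floxed allele was made in a C57BL/6NTac embryonic stem cell line. Floxed mice were bred with and without this Cre, and the paper does not state which of these alleles the WT littermates carried. Tamoxifen at 40 mg/kg on 5 consecutive days was given to both PD-1cKO and WT mice. The labels do not state that the samples of a group came from separate animals or cultures, so the p-values measure the spread between these samples.

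Some features of the libraries touched the genes below. The depth per library is unknown, because FPKM holds no counts. In the tumor labelled isotype 1 dose replicate 1, mitochondrial genes held 54.6% of the summed FPKM, against at most 7.65% in every other sample, and values that change without it are given below. Short noncoding RNA held 30.2% to 66.5% of the summed FPKM in the PD-1cKO and WT tumors and at most 0.082% in all other samples. Its median was 54.0% in PD-1cKO and 45.3% in WT tumors, so the share also differed within the second model. Levels set across the 2 models, and most fold changes between PD-1cKO and WT tumors, are therefore also given after median-of-ratios scaling. Pdcd1 was at 5.05, 8.29 and 19.9 FPKM (lowest, median and highest) in the tumors labelled PD-1cKO and at 1.71, 3.01 and 7.02 in the WT tumors. A value over the whole gene does not check a deletion of some of its exons, so it does not test that label.

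Ccl21a needed a check of its sequence before its values could be read, since the mouse genome carries several near-identical copies of this gene. Of the 50-base stretches in the GENCODE M21 transcripts of Ccl21a, 71.6% also occurred in Gm21541, Gm13304, Ccl21b or Gm10591, a length equal to that of 1 read. The open reading frames of these 4 copies each had 402 bases and differed from that of Ccl21a at the same 2 positions, T84A and C194T, counted from 1 at the start codon. Bases 54 to 113 of the coding strand are shown to let a reader see how little separates a copy from Ccl21a, with the differing base in capitals.
Ccl21a: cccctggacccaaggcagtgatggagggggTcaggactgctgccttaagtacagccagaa
Gm21541: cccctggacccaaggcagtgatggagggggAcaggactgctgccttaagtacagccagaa
Values listed for Ccl21a, Gm21541 and a scaffold copy of Ccl21b could therefore not be fully told apart, and the sum over the copies is given beside Ccl21a. For Ccl19, 52.0% of the stretches were shared with Gm2564, Gm12407, Ccl19-ps1 or Ccl19-ps3. Relb shared 0.65% of its stretches, and the other 5 genes shared none.

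RefSeq promoters of the GRCm38.p6 build were matched for 5 of the 8 genes (Ccl19, Ccl21a, Fscn1, Ccl22 and Ccl17). In the 250 bases before the start, searched on both strands, the 10-letter kappaB consensus matched in none of the 5, against 7.25% of all 32851 promoters. The STAT-type motif TTCNNNGAA matched once, in Ccl17 (7.02% of all promoters), and the interferon-response motif, GAAA repeated after any 2 bases, matched once, in Ccl19 (2.98%), as GAAAGTGAAA. No match overlapped a match of another motif. The promoters of the chemokine gene with the largest fold change after 2 doses and of the chemokine gene with the match of TTCNNNGAA (in capitals) follow, at chr4:42773992-42774241 on the minus strand and chr8:94810203-94810452 on the plus strand.
Ccl21a: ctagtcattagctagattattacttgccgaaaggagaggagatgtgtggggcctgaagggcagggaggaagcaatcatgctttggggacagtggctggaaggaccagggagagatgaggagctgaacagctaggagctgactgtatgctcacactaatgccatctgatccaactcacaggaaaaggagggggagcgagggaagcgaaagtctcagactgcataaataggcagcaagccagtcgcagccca
Ccl17: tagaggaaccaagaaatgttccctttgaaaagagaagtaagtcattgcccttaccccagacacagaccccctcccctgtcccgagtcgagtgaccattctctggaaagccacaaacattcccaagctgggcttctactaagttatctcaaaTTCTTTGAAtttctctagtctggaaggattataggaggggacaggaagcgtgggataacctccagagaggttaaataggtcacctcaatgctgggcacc
Such a match describes the letters only.

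After 2 doses, PD-1 Ab-treated tumors had higher Ccl21a and Cd83 than isotype tumors, and these were the 2 of 8 genes that passed an adjusted p under 0.01 in limma with Benjamini-Hochberg adjustment over all 15062 genes tested. Of all genes tested, 8.25% passed in either direction, 6.69% as higher and 1.56% as lower. Ccr7, Ccl22 and Ccl19 had higher means without passing, Ccl17 and Relb differed by less than their errors, and Fscn1 had a lower mean without passing. One PD-1 Ab-treated tumor, replicate 5, lay among the isotype tumors for Ccr7, Ccl22, Ccl21a and Cd83. Without it, 4 of the 8 genes passed, all as higher, but the share of all genes passing was not computed for that fit. Replicate 5 also held the lowest treated sum of leukocyte genes, so this count is not a result about the 8 genes alone. The plot of levels by sample shows this tumor as the low point of its group for every gene but Fscn1 and Relb.

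**Figure D1:**
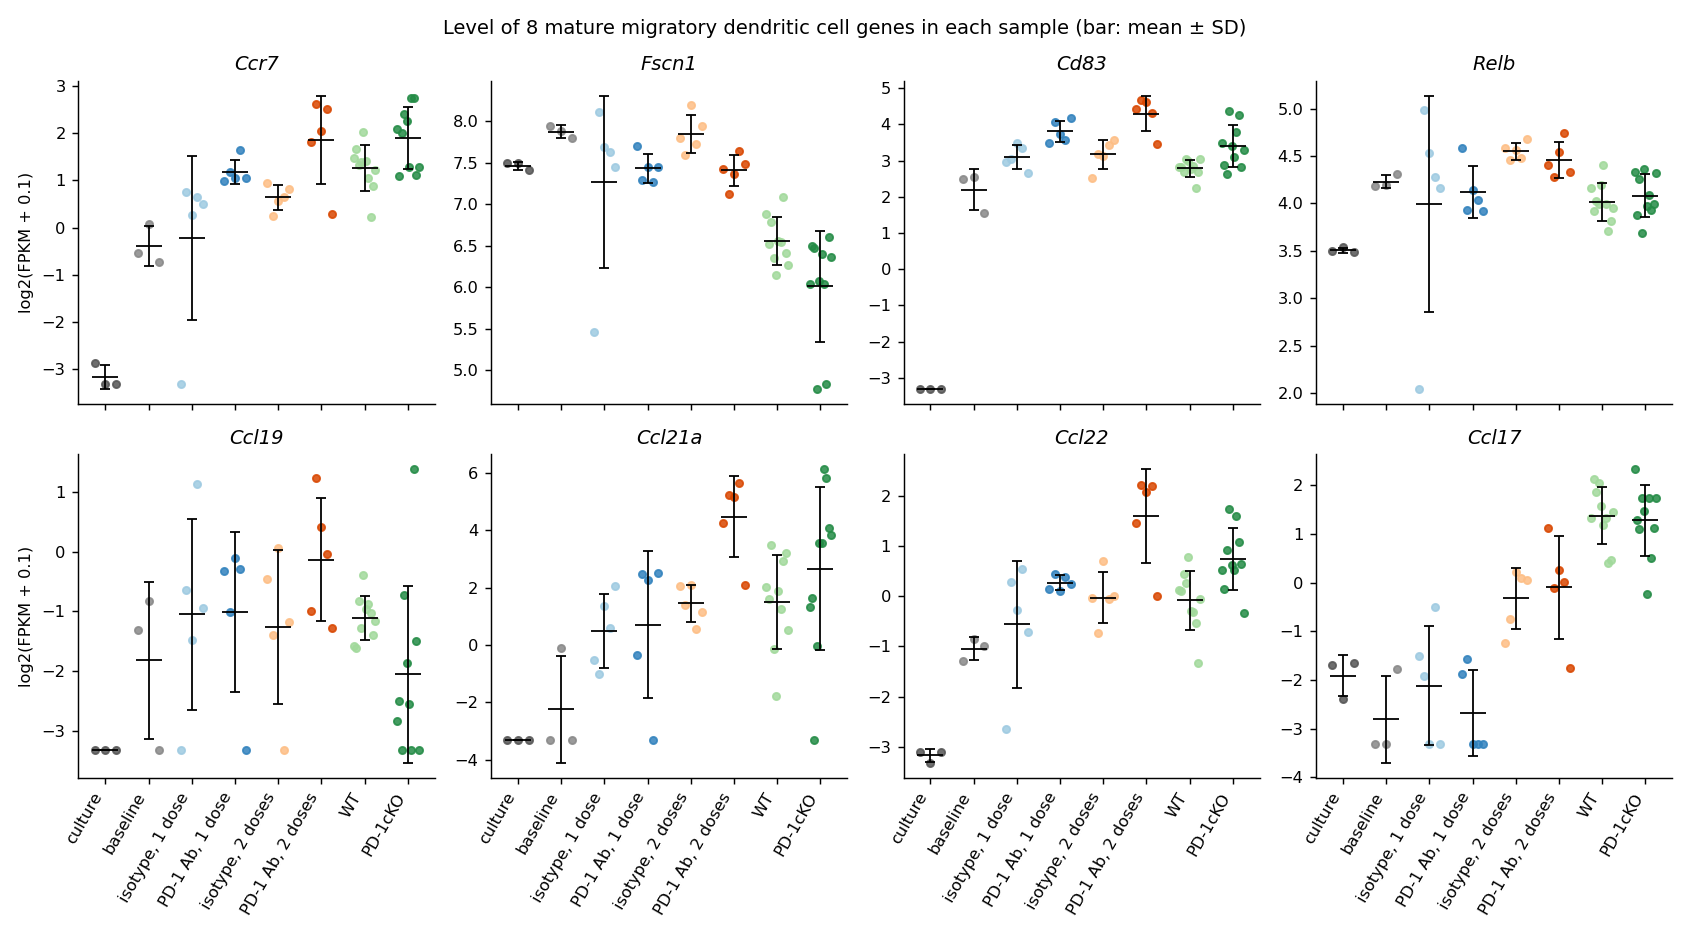
Each panel plots log2(FPKM + 0.1) of 1 gene in every sample of the 8 groups, with points for samples and bars for the mean ± SD of the log2 values. Fscn1 and Relb were high in culture, Cd83, Ccl19 and Ccl21a were listed at 0 there, and 1 PD-1 Ab-treated tumor of the 2-dose group sits at 1.12 FPKM of Ccr7 among isotype tumors at 1.08 to 1.82 FPKM.

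Ccr7 (ENSMUSG00000037944, chr11:99144196-99155077, minus strand, GRCm38) encodes the homing receptor of mature dendritic cells and of naive and central memory T cells. The 5 PD-1 Ab-treated tumors of the 2-dose group were at 3.40, 6.03, 4.03, 5.65 and 1.12 FPKM. The isotype tumors were at 1.82, 1.08, 1.38, 1.46 and 1.66 FPKM. Thus 4 of 5 treated tumors lay above every isotype tumor and the fifth lay inside their range. The difference was 1.21 on the log2 scale (SE 0.38, 95% interval 0.38 to 2.05, adjusted p = 0.0389 in limma), and without replicate 5 it was 1.61 (adjusted p = 0.000326).

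After 1 dose, Ccr7 was at 1.90, 2.15, 1.96, 3.01 and 1.96 FPKM in PD-1 Ab-treated tumors and at 0, 1.59, 1.11, 1.47 and 1.32 FPKM in isotype tumors, the 0 being the tumor rich in mitochondrial RNA. All 5 treated tumors lay above all 5 isotype tumors, as they did for 3.59% of the 14556 genes tested (522 genes). On the log2 scale the difference was 1.40 (SE 0.68, adjusted p = 0.825), and 0.63 (adjusted p = 0.115) without that isotype tumor. None of the 14556 genes tested after 1 dose passed in limma in either direction (0%), although 895 had an unadjusted p under 0.05. The median of all genes in that comparison was 0.26, and median-of-ratios scaling gave 1.39 for Ccr7 (adjusted p = 0.524).

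In the PD-1cKO tumors Ccr7 had a lowest, median and highest level of 2.04, 4.04 and 6.62 FPKM, against 1.06, 2.47 and 3.98 FPKM in WT tumors. The ranges overlapped, with 5 of 10 PD-1cKO tumors above every WT tumor. This was a log2 fold change of 0.64 (SE 0.25, adjusted p = 0.0415). The median of all genes in this comparison was -0.20 on the log2 scale, and after median-of-ratios scaling the change of Ccr7 was 0.89 (adjusted p = 0.0210). Of the 3 runs of sample identifiers, which are described with Ccl21a, one held 2 PD-1cKO tumors at 2.06 and 2.33 FPKM and 1 WT tumor at 2.23 FPKM, and one held a PD-1cKO tumor at 6.61 FPKM and WT tumors at 1.06 to 3.98 FPKM. With the run as a covariate the log2 fold change was 0.84 (adjusted p = 0.139 in limma). None of the 7 genes tested here passed, against 21.3% of the 15075 genes tested.

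Ccl21a (ENSMUSG00000094686, chr4:42772860-42773993, minus strand) encodes a form of the CCR7 ligand CCL21, and it showed the largest fold change of the 8 genes after 2 doses. It was at 19.0, 37.1, 35.8, 50.2 and 4.21 FPKM after 2 doses of PD-1 Ab. The isotype tumors were at 4.08, 2.54, 4.21, 1.36 and 2.14 FPKM. Replicate 5 of the treated group was level with the highest isotype tumor, and the other 4 were all above. Ccl21a rose by 3.02 on the log2 scale (SE 0.58, 95% interval 1.75 to 4.30, adjusted p = 0.00501).

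The sum of Ccl21a and its copies gave a log2 fold change of 3.05 (adjusted p = 0.00490), so the split between copies did not decide the size. Ccl21a itself held 58.7% to 72.6% of that sum in the treated tumors. The call was close to its limit, since leaving out 1 tumor at a time kept it past 0.01 in 2 of 10 cases (without treated replicate 5 and without isotype replicate 3), with adjusted p between 4.17e-05 and 0.0178. In a fit of all 8 groups, which share 1 estimate of the spread, its adjusted p was 0.0889, while that of Ccl22 was 0.00709.

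After 1 dose, Ccl21a was at 0.677, 5.44, 4.68, 0 and 5.63 FPKM in treated tumors and at 0.593, 0.392, 2.50, 1.43 and 4.03 FPKM in isotype tumors. The groups overlapped over most of their range (log2 fold change 0.22, SE 1.07, adjusted p = 0.928), and without the isotype tumor rich in mitochondrial RNA it was -0.04 (adjusted p = 0.992). The difference between the 2-dose and the 1-dose effect was 2.81 on the log2 scale (95% interval 0.14 to 5.48, adjusted p = 0.623) and 3.06 (adjusted p = 0.243) without that tumor, so a larger effect after 2 doses was not shown. None of the 8 genes passed that contrast, nor did any of the 15289 genes tested (0%, with 1182 at an unadjusted p under 0.05 in limma).

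PD-1cKO tumors spread widely in Ccl21a, from 0 through a median of 11.7 to 70.2 FPKM, against 0.192, 3.26 and 11.1 FPKM in WT tumors. In 6 of 10 PD-1cKO tumors the level exceeded that of every WT tumor, and in 1 it was listed at 0. The fitted log2 fold change was 1.16 (SE 0.94, adjusted p = 0.313). The sample identifiers fell into 3 runs, of which 1 held only PD-1cKO tumors. In the run with 9 WT tumors at 0.192 to 11.1 FPKM, the only PD-1cKO tumor was at 56.2 FPKM, and in the run with 2 PD-1cKO tumors at 14.4 and 16.9 FPKM the only WT tumor was at 1.36 FPKM. With the run as a covariate the log2 fold change was 3.87 (adjusted p = 0.0698).

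Ccl19 (ENSMUSG00000071005, chr4:42754525-42756577, minus strand), the other CCR7 ligand, was low in every tumor. After 2 doses it was at 0.401, 2.25, 1.23, 0.872 and 0.311 FPKM in treated tumors and at 0.628, 0.282, 0.938, 0 and 0.341 FPKM in isotype tumors. The ranges overlapped, with 2 of 5 treated tumors above every isotype tumor (log2 fold change 1.12, SE 0.65, adjusted p = 0.216). After 1 dose the log2 fold change was 0.04 (SE 0.82, adjusted p = 0.983), and it was -0.53 (adjusted p = 0.744) without the isotype tumor rich in mitochondrial RNA.

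In the PD-1cKO model Ccl19 stayed under the limit of 0.5 FPKM for the test in both groups. In 7 of 10 PD-1cKO tumors it was below every WT tumor, with 3 of them listed at 0, and 1 lay above at 2.51 FPKM. WT tumors ran from 0.228 to 0.664 FPKM. In the contrast of the 2 models' effects, Ccl19 had a difference of 2.07 (antibody minus PD-1cKO, 95% interval 0.40 to 3.74, adjusted p = 0.231). None of the 8 genes passed that contrast, against 0.0975% of the 16404 genes tested (0.0853% as higher and 0.0122% as lower).

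Ccl22 (ENSMUSG00000031779, chr8:94745590-94751699, plus strand) encodes a CCR4 ligand that attracts regulatory and helper T cells. After 2 doses it was at 2.63, 4.55, 4.11, 4.50 and 0.907 FPKM in treated tumors. In isotype tumors it was at 0.868, 0.502, 1.51, 0.856 and 0.904 FPKM. The pattern was that of Ccr7, with 4 treated tumors above all isotype tumors and replicate 5 among them. The log2 fold change was 1.62 (SE 0.42, 95% interval 0.71 to 2.53, adjusted p = 0.0183), and 2.01 (adjusted p = 0.000423) without replicate 5.

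After 1 dose Ccl22 was at 0.980 to 1.26 FPKM in treated tumors, inside the isotype range of 0.059 to 1.35 FPKM (0.83 on the log2 scale, SE 0.53, adjusted p = 0.825, and 0.31 without the isotype tumor rich in mitochondrial RNA). PD-1cKO tumors were at 0.694, 1.44 and 3.24 FPKM (lowest, median and highest) and WT tumors at 0.300, 0.912 and 1.61 FPKM. Although the ranges overlapped, 9 of 10 PD-1cKO tumors lay above the WT median. The log2 fold change was 0.83 (SE 0.26, adjusted p = 0.0170), and after median-of-ratios scaling it was 1.08 and passed (adjusted p = 0.00738). In the run with 1 WT tumor, at 0.857 FPKM, the PD-1cKO tumors were at 0.694 and 1.45 FPKM, and with the run as a covariate the log2 fold change was 0.75 (adjusted p = 0.227).

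Ccl17 (ENSMUSG00000031780, chr8:94810453-94812036, plus strand), the other CCR4 ligand and a neighbour of Ccl22 on chromosome 8, did not follow it in the antibody comparison. After 2 doses it was at 2.09, 0.823, 1.10, 0.906 and 0.196 FPKM in treated tumors and at 0.325, 0.4999, 1.06, 0.971 and 0.936 FPKM in isotype tumors. The groups overlapped (log2 fold change 0.23, SE 0.49, adjusted p = 0.763). After 1 dose 3 of 5 treated and 2 of 5 isotype tumors were listed at 0, and the gene was under the limit for the test.

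In the second model PD-1cKO tumors had a mean Ccl17 level of 2.59 ± 1.18 FPKM (SD, n = 10) and WT tumors 2.69 ± 1.04 FPKM (SD, n = 10), with a log2 fold change of -0.10 (SE 0.28, adjusted p = 0.792). Isotype tumors of the 2-dose group had 0.759 ± 0.326 FPKM (SD, n = 5). After median-of-ratios scaling these means were 3.36, 2.86 and 0.632. The 2 models differ in time, host and library composition together, so these cannot be told apart.

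Cd83 (ENSMUSG00000015396, chr13:43784775-43803132, plus strand) encodes a surface protein of mature dendritic cells that activated lymphocytes and macrophages can also carry. After 2 doses it was at 21.2, 25.6, 24.4, 19.9 and 10.9 FPKM in treated tumors. In isotype tumors it was at 5.66, 8.99, 8.63, 10.8 and 11.9 FPKM. Again 4 of 5 treated tumors were above every isotype tumor. Cd83 rose by 1.13 on the log2 scale (SE 0.25, 95% interval 0.59 to 1.67, adjusted p = 0.00905). Leaving out 1 tumor at a time kept it past 0.01 in 1 of 10 cases, the one without replicate 5, with adjusted p between 0.000507 and 0.0299.

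Cd83, like Ccr7, was among the 3.59% of genes with every treated tumor above every isotype tumor after 1 dose. Treated tumors were at 11.1, 16.5, 13.3, 11.8 and 17.9 FPKM and isotype tumors at 7.75, 8.15, 11.1, 10.1 and 6.21 FPKM. The closest treated and isotype tumors differed by less than 0.1 FPKM. The log2 fold change was 0.70 (SE 0.23, adjusted p = 0.493), where no gene passed, and 0.46 after median-of-ratios scaling, against 0.67 without the isotype tumor rich in mitochondrial RNA. PD-1cKO tumors were at 6.06, 10.1 and 20.4 FPKM (lowest, median and highest) and WT tumors at 4.64, 6.93 and 8.18 FPKM, with 7 of 10 PD-1cKO tumors above every WT tumor. There the log2 fold change was 0.61 (SE 0.19, adjusted p = 0.0158), and after median-of-ratios scaling it was 0.87 and passed (adjusted p = 0.00887). In the run with 1 WT tumor, at 8.15 FPKM, the PD-1cKO tumors were at 7.01 and 9.76 FPKM, and with the run as a covariate the log2 fold change was 0.87 (adjusted p = 0.0683).

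Fscn1 (ENSMUSG00000029581, chr5:142960343-142973185, plus strand) encodes fascin, the actin-bundling protein of dendrites, which many carcinoma lines also make. In these data the cultured line itself held it at 180, 179 and 170 FPKM, so its level in a tumor cannot be read as that of dendritic cells alone. After 2 doses treated tumors were at 171, 140, 164, 200 and 178 FPKM and isotype tumors at 221, 192, 292, 211 and 244 FPKM. Lower values were thus found in 4 of 5 treated tumors than in any isotype tumor. Its log2 fold change was -0.44 (SE 0.13, 95% interval -0.72 to -0.16, adjusted p = 0.0288).

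After 1 dose the log2 fold change of Fscn1 was 0.17 (SE 0.41, adjusted p = 0.862), and -0.29 (adjusted p = 0.297) without the isotype tumor rich in mitochondrial RNA, where Fscn1 was at 43.8 FPKM against 174 to 275 FPKM in the other 4. PD-1cKO tumors had 27.1, 74.8 and 97.4 FPKM (lowest, median and highest) and WT tumors 70.6, 92.6 and 136 FPKM. Of the PD-1cKO tumors 5 of 10 were below every WT tumor (log2 fold change -0.55, SE 0.22, adjusted p = 0.0468). After median-of-ratios scaling the difference was -0.29 (adjusted p = 0.194). In the run with 1 WT tumor, at 77.04 FPKM, the PD-1cKO tumors were higher, at 82.33 and 97.38 FPKM. In the run with 9 WT tumors at 70.6 to 135.8 FPKM, the only PD-1cKO tumor was lower, at 28.35 FPKM.

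Relb (ENSMUSG00000002983, chr7:19606217-19629438, minus strand) encodes the NF-kB subunit of the noncanonical pathway, which mature dendritic cells need. It was also made by the cultured line, at 11.2, 11.5 and 11.1 FPKM. After 2 doses treated tumors were at 21.1, 19.3, 23.1, 26.6 and 20.1 FPKM and isotype tumors at 23.8, 21.8, 23.5, 22.1 and 25.5 FPKM. The groups overlapped, and the log2 fold change was -0.09 (SE 0.10, 95% interval -0.31 to 0.13, adjusted p = 0.538). In the PD-1cKO model it was 0.07 (SE 0.11, 95% interval -0.16 to 0.29, adjusted p = 0.632), with 12.8 to 20.4 FPKM in PD-1cKO and 12.9 to 21.1 FPKM in WT tumors, and after median-of-ratios scaling it was 0.32 (adjusted p = 0.0406).

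**Figure D2:**
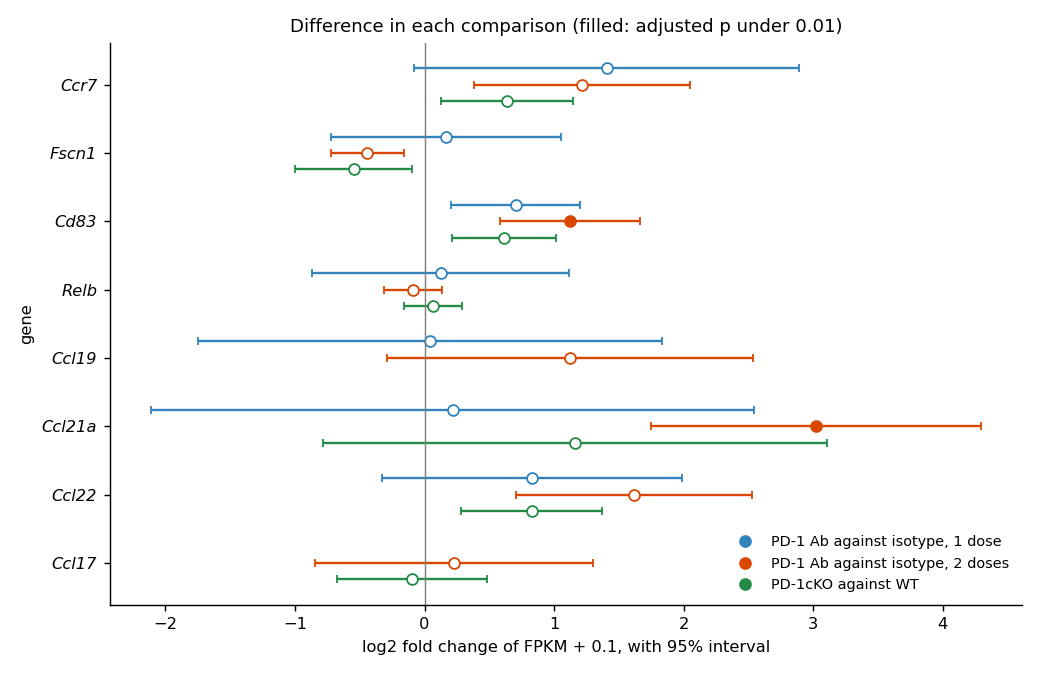
The log2 fold change of each gene with its 95% interval is plotted for PD-1 Ab against isotype after 1 and 2 doses and for PD-1cKO against WT, with filled points where the adjusted p was under 0.01 and no point where the gene was under the limit for the test. Only Ccl21a (3.02) and Cd83 (1.13) after 2 doses are filled.

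Compared with the culture, isotype tumors of the 2-dose group were higher in 6 of the 7 genes tested, against 37% of 15199 genes in either direction, 20.2% as higher and 16.8% as lower. The median of all genes there was -0.11. In culture Ccr7, Ccl22, Ccl17, Ccl21a and Cd83 averaged under the limit for the test, so they entered only through the isotype tumors. Only a higher call was thus open to these genes, and their direction was not tested. Among the genes called, Relb alone could have come out in either direction. Cd83 and Ccl21a were listed at 0 in all 3 cultures and averaged 9.18 ± 2.37 and 2.87 ± 1.24 FPKM (SD, n = 5) in these tumors. Ccr7 was at 0 to 0.036 FPKM in culture and was higher in the tumors by 3.81 (SE 0.25, adjusted p = 1.90e-06) on the scale of log2(FPKM + 0.1), and Ccl22 by 3.15 (SE 0.33, adjusted p = 4.74e-05). Relb was higher by 1.04 (SE 0.08, adjusted p = 5.30e-06) and Ccl17 by 1.59 (SE 0.39, adjusted p = 0.00830), while Fscn1 did not pass at 0.38 (SE 0.13, adjusted p = 0.0318). The call for Ccl17 was lost with a pseudocount of 1 (adjusted p = 0.0138), with no filter (0.0176), with the replicate block (0.0521), in a fit of all groups (0.0290) and in 6 of 8 fits that left out 1 sample. Of the macrophage, T cell and blood endothelium markers tested, 6 of 6, 4 of 4 and 3 of 3 also passed as higher than in culture. The T cell and blood endothelium markers summed to at most 0.023 and 0.21 FPKM in culture, and Adgre1, C1qa and C1qb were listed at 0 there. For these markers, too, only a higher call was open.

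Baseline tumors had lower means than isotype tumors for Ccr7, Ccl22 and Cd83, none of which passed the test. Ccr7 was at 0.588, 0.960 and 0.503 FPKM, Ccl22 at 0.306 to 0.451 FPKM and Cd83 at 2.83 to 5.78 FPKM. Against culture, 4 of the 4 genes tested were higher (Ccr7, Fscn1, Cd83 and Relb), where 39.1% of 15217 genes passed, 20.8% as higher and 18.3% as lower. Ccr7 and Cd83 averaged under 0.5 FPKM in culture and entered only through the baseline tumors, so only a higher call was open to them. In a limma fit of all groups Fscn1 (adjusted p = 0.600) and Relb (adjusted p = 0.153) did not pass. Ccl17, under the limit for the test, had a lower mean in baseline tumors (0.065 FPKM) than in culture (0.174 FPKM). Against isotype tumors of the 2-dose group, 0 of 7 genes tested passed, where 0.628% of 14967 genes did (0.448% as higher and 0.18% as lower) and 2647 had an unadjusted p under 0.05. Among the 7, the lowest adjusted p belonged to Ccl21a, at 0, 0.840 and 0 FPKM in baseline tumors (log2 fold change -3.70, SE 0.73, adjusted p = 0.0275), and the next to Ccl17 (-2.48, SE 0.53, adjusted p = 0.0386).

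Leukocyte genes moved with these differences. The summed FPKM of Ptprc, Cd53, Laptm5 and Coro1a was 287 to 603 in the treated tumors of the 2-dose group and 167 to 221 in the isotype tumors, and replicate 5 held the lowest treated value. T cell markers (Cd3e, Cd3d, Cd8a and Cd4) summed to 19.99 in replicate 5, to 50.2 to 81.4 in the other 4 treated tumors and to 5.08 to 10.9 in isotype tumors. In bulk tissue, more cells of a type and more RNA per cell cannot be told apart. Each gene was therefore also set against the mean log2 level of these 4 leukocyte genes, and of the pan-dendritic genes Flt3, Zbtb46 and Itgax, in the same tumor. The pan-dendritic genes were not free of the cancer line, since cultured MC-38 held Zbtb46 at 3.70 ± 0.20 FPKM (SD, n = 3), close to the 4.28 ± 0.19 FPKM of isotype tumors (SD, n = 5), with Itgax at 0. After 2 doses Flt3 was at 1.32 (adjusted p = 0.0248 in limma), and in the PD-1cKO model at 0.31 (adjusted p = 0.233).

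Relative to the leukocyte genes, Ccr7 differed by -0.03 (95% interval -0.69 to 0.62), Cd83 by -0.12 (95% interval -0.60 to 0.36) and Ccl22 by 0.37 (95% interval -0.36 to 1.10) on the log2 scale after 2 doses. The adjusted p was 0.922, 0.630 and 0.330 in limma. Ccl21a remained higher, by 1.77 (SE 0.44, adjusted p = 0.000908), where 76.7% of genes passed in either direction and 1.04% as higher. Fscn1 was lower by this measure (-1.69, SE 0.28, adjusted p = 5.08e-05) and so was Relb (-1.34, SE 0.25, adjusted p = 8.68e-05), where 75.7% of all genes passed as lower and the median gene was at -1.29.

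Relative to the pan-dendritic genes the same 3 genes passed. Ccl21a differed by 2.19 (SE 0.46, adjusted p = 0.000773), Fscn1 by -1.27 (adjusted p = 0.000354) and Relb by -0.92 (adjusted p = 0.000397), where 60.4% of genes passed, 2.64% as higher and 57.8% as lower, and the median gene was at -0.87. Ccr7 was at 0.38 (95% interval -0.24 to 1.01) and Ccl22 at 0.79 (95% interval 0.06 to 1.52, adjusted p = 0.0478). In the PD-1cKO model none of the 7 genes tested passed by either measure, against 45% of genes relative to leukocyte genes (2.12% as higher, 42.9% as lower) and 38.1% relative to pan-dendritic genes (3.85% as higher, 34.3% as lower). The median gene was at -0.82 and -0.58. There Ccr7 and Cd83 differed by 0.02 (95% interval -0.43 to 0.46) and -0.01 (95% interval -0.34 to 0.32) relative to leukocyte genes.

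**Figure D3:**
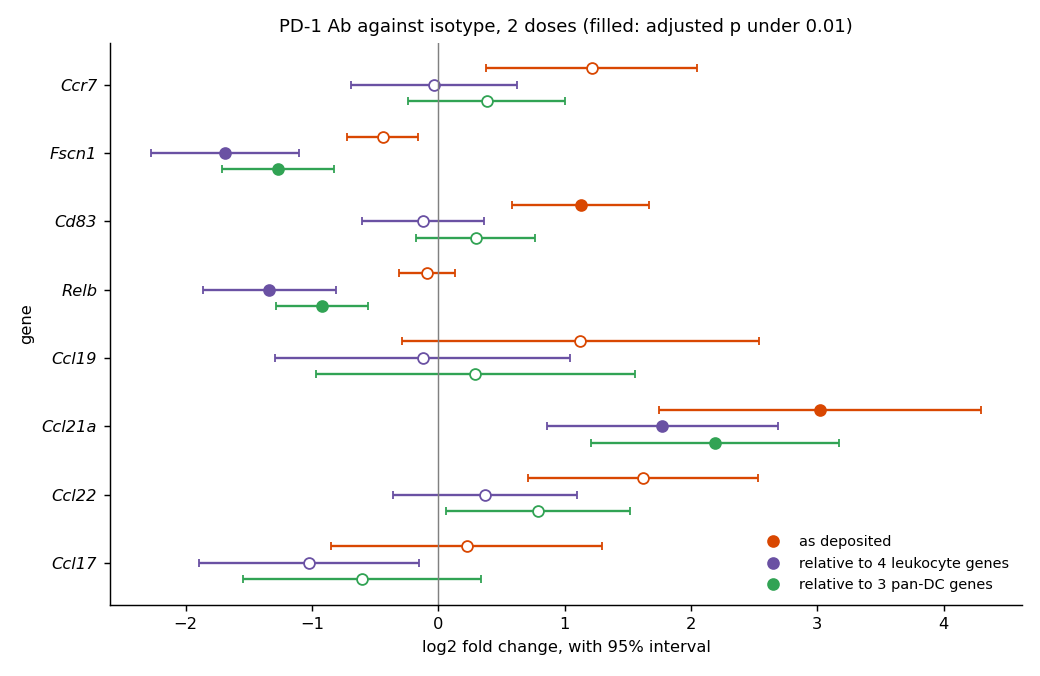
The log2 fold change after 2 doses with its 95% interval is plotted for each gene as deposited, relative to 4 leukocyte genes and relative to 3 pan-dendritic genes, with filled points where the adjusted p was under 0.01. Ccr7 moved from 1.21 to -0.03 relative to leukocyte genes, and Ccl21a stayed at 1.77.

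Within groups, the 8 genes did not vary as 1 unit. Over the 43 tumors with group means removed, 7 of the 28 pairs were correlated at an adjusted permutation p under 0.05, 6 of them positively. The smallest of these 7 correlations had a size of 0.450, which 9 of the 28 pairs (32.1%) and 37.5% of all pairs among the 13228 genes averaging 1 FPKM or more over the tumors reached, so correlation of this size was no more frequent among the 8 genes than elsewhere. Without the isotype 1 dose group these shares were 17.9% (5 of 28) and 28.4%. The closest pair was Ccr7 and Ccl22 (Pearson's r = 0.843, Spearman's rho = 0.783, both with permutation p = 1e-05, the smallest that 100000 permutations can give, adjusted p = 0.00028). Without the 2 tumors farthest in Ccr7 its r was 0.730, and it was 0.760 within PD-1cKO and 0.719 within WT tumors. Without the isotype 1 dose group it was 0.786 (adjusted permutation p = 0.00056). Tumors with more of the homing receptor thus had more of this chemokine in both groups of 10.

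The other 4 pairs among Ccr7, Ccl22, Ccl19 and Cd83 that passed were weaker. Ccr7 and Ccl22 had r of 0.501 and 0.497 with Ccl19 (rho 0.437 and 0.435) and r of 0.459 and 0.456 with Cd83 (rho 0.517 and 0.493), each with an adjusted permutation p of 0.0156 for r and between 0.0115 and 0.0307 for rho. Without the 2 farthest tumors these r were 0.377, 0.379, 0.494 and 0.413. After median-of-ratios scaling the pairs with Cd83 no longer passed (r = 0.273 and 0.382, adjusted permutation p = 0.386 and 0.131), and without the isotype 1 dose group the pairs with Ccl19 did not (r = 0.384 and 0.358, adjusted permutation p = 0.0959 and 0.0988).

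Fscn1 ran against Cd83 (r = -0.450, adjusted permutation p = 0.0240, rho = -0.377, adjusted permutation p = 0.0631), with r of -0.931 within PD-1cKO and -0.814 within WT tumors and -0.508 without the 2 farthest tumors. Without the isotype 1 dose group it was -0.691 (adjusted permutation p = 0.00056). Fscn1 and Ccr7 did not pass over all tumors (r = 0.222, adjusted permutation p = 0.633), but without that group r was -0.515 (adjusted permutation p = 0.0113), and it was -0.722 within PD-1cKO and -0.601 within WT tumors. Fscn1 and Relb were correlated at r = 0.704 (adjusted permutation p = 0.0156, rho = 0.404, adjusted permutation p = 0.0699), but without the isotype 1 dose group r was 0.316 (adjusted permutation p = 0.207), so that relation rested on this group, which holds the tumor rich in mitochondrial RNA. Ccr7 and Relb passed after median-of-ratios scaling (r = 0.666, adjusted permutation p = 0.00364) and not otherwise (r = 0.698, adjusted permutation p = 0.0688, and 0.214 without that group). None of the 7 pairs with Ccl21a passed, r lying between -0.127 and 0.254. Within WT tumors its r was -0.737 with Cd83, 0.733 with Fscn1, -0.632 with Ccr7 and -0.591 with Ccl22. Within PD-1cKO tumors these r were 0.360, -0.114, 0.125 and -0.037. Ccl17 and Ccl22 did not pass (r = 0.321, adjusted permutation p = 0.260), with r of 0.779 within WT and 0.041 within PD-1cKO tumors. All points share the composition of their library, and the relations are descriptions of these tumors.

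**Figure D4:**
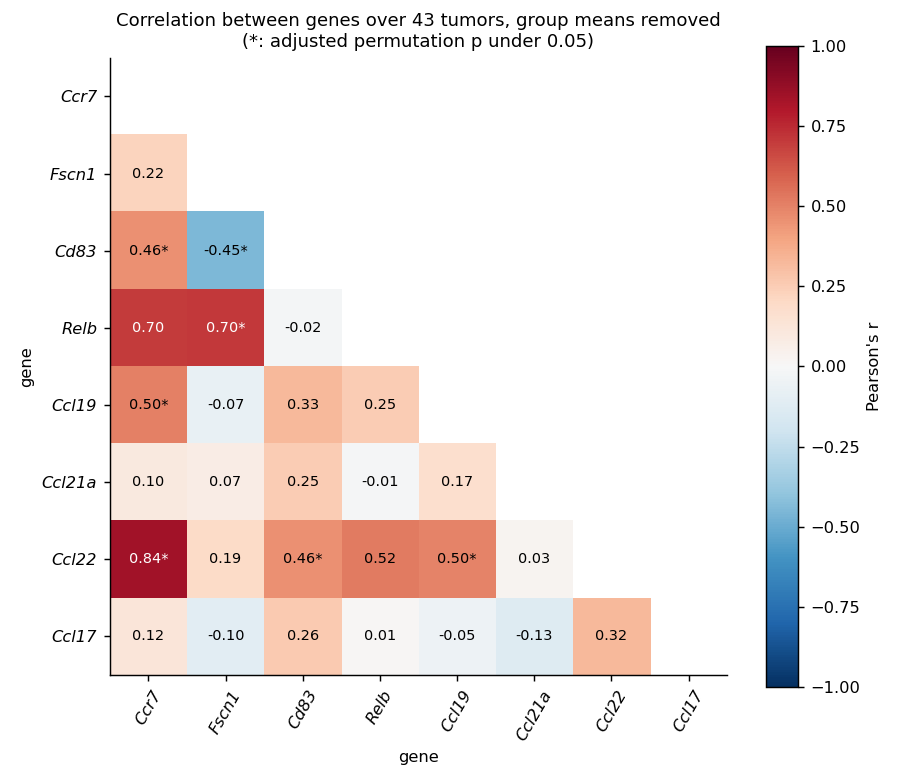
Pearson's r between each pair of the 8 genes over 43 tumors, with group means removed, is printed and coloured, and an asterisk marks an adjusted permutation p under 0.05. Ccr7 and Ccl22 stand out at 0.84, and the pairs with Ccl21a lie between -0.13 and 0.25.

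Among those 13228 genes, the genes most like each member were taken by Pearson's r over the same 43 tumors, as descriptions. For Ccl21a the first was Flt4, the vascular endothelial growth factor receptor gene of lymphatic endothelium (r = 0.802), followed by a copy of Ccl21b (0.789), Gfra1 (0.653), Cx3cr1 (0.647) and Abhd6 (0.642). Flt4 and the copy remained first and second without the isotype tumor rich in mitochondrial RNA (r = 0.823 and 0.793). Flt4 was at 2.42, 3.52, 3.18, 3.89 and 0.868 FPKM in the treated tumors of the 2-dose group, in the order given for Ccl21a. In isotype tumors it was at 0.5255 to 0.814 FPKM, so replicate 5 was again close to them. Flt4 rose by 1.76 (SE 0.36, adjusted p = 0.00616 in limma).

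**Figure D5:**
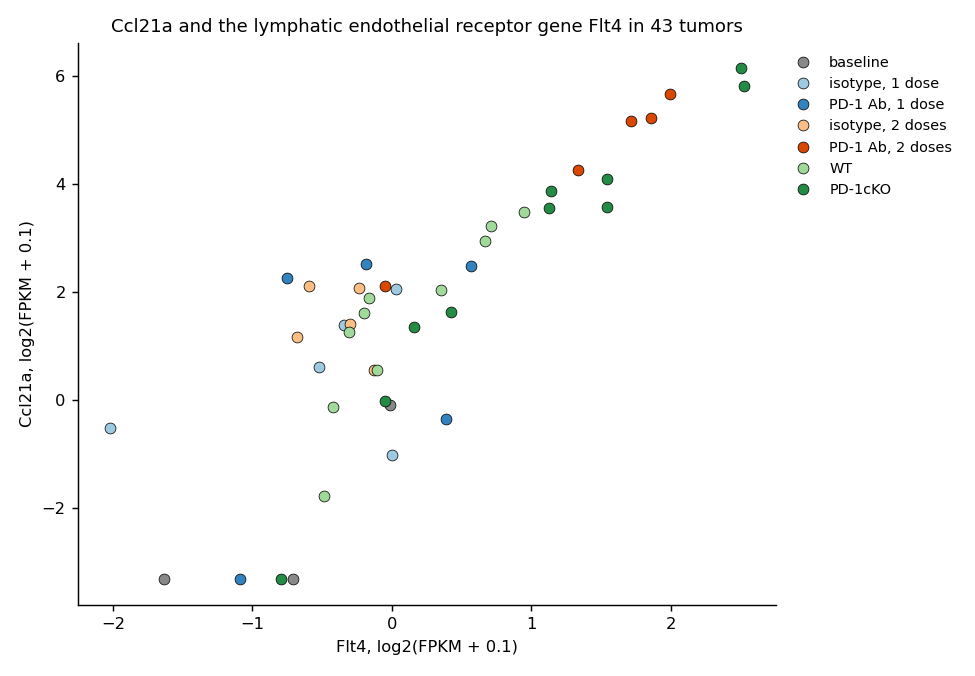
Each point is 1 of 43 tumors, with log2(FPKM + 0.1) of Flt4 on the horizontal axis, that of Ccl21a on the vertical axis and groups by colour. Tumors high in 1 gene were high in the other in the PD-1cKO group and in the PD-1 Ab-treated 2-dose group.

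The other lymphatic markers did not pass after 2 doses. Mmrn1 was at 2.40 (SE 0.63, adjusted p = 0.0189), Reln at 2.06 (adjusted p = 0.0392) and Lyve1 at 0.25 (adjusted p = 0.717), and Prox1 was under the limit for the test. The summed FPKM of the 5 lymphatic markers was 8.57 to 10.8 in 4 treated tumors, 1.90 in replicate 5 and 1.64 to 4.51 in isotype tumors. This split was not particular to lymphatic markers. In the same order, blood endothelium markers summed to 44.5 to 68.2, 20.2 and 14.3 to 19.0 FPKM. Macrophage markers summed to 1937 to 2346, 1131 and 605 to 964 FPKM. Lymph node follicle markers (Cr2 and Fcer2a) summed to 1.41 FPKM in treated replicate 2, against at most 0.566 FPKM in isotype tumors and 0.105 FPKM in the other 4 treated tumors. The 5 B cell markers summed to 18.9 FPKM in that same replicate, against 2.002 to 5.78 FPKM in isotype tumors and 1.36 to 5.24 FPKM in the other 4, and none of the 4 tested passed. The part of lymphatic vessels or of adjoining lymphoid tissue in the level of Ccl21a was not tested.

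For Ccr7 the most alike genes were Rab3il1 (r = 0.922), Il4ra (0.910), Tcn2 (0.909), Cnp (0.906) and Rxra (0.905). Without the isotype tumor rich in mitochondrial RNA only Rab3il1 stayed among the first 5 (r = 0.852), and Clec10a, a marker of type 2 conventional dendritic cells and macrophages, entered at 0.828. For Ccl22 they were Bscl2 (0.877), Gna15 (0.866), Scamp2 (0.865), Il10rb (0.859) and Scarf1 (0.851), of which the first 3 kept their places without that tumor. For Fscn1 they were Samd14 (0.966), Kat2a (0.965), Cdc42ep1 (0.963), Phc2 (0.963) and Micall2 (0.960), and the same 5 genes were found without it.

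Other genes of the mature dendritic cell program were counted from lists of known genes. The lists were chosen with earlier results of these data known, so their counts are descriptions and do not test the lists. Of 9 costimulatory and checkpoint ligands tested, 4 passed as higher after 2 doses and 0 as lower, with a median log2 fold change of 0.97 against -0.04 over all genes. They included Pdcd1lg2 (3.56, SE 0.32, adjusted p = 0.000806) and Cd274 (2.14, SE 0.26, adjusted p = 0.000885), the genes of the PD-1 ligands PD-L2 and PD-L1, and Cd40 (1.42, SE 0.19, adjusted p = 0.00101). Of 22 cytokine and other program genes, 11 passed as higher with a median of 0.82, among them Il12b, the gene of the shared subunit of interleukin-12 and interleukin-23 (2.20, SE 0.27, adjusted p = 0.000885), Apol7c (3.65) and Adam8 (1.08). Of all genes tested, 6.69% passed as higher. List values in both models are given as deposited, not relative to the leukocyte genes, which were also higher in treated tumors. The 22 program genes are not particular to dendritic cells, since they summed to 160 to 163 FPKM in cultured MC-38.

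In the PD-1cKO model, 2 of 8 costimulatory and checkpoint ligands (Icosl, 0.39, and Pdcd1lg2, 1.42) and 5 of 22 program genes passed as higher, with Fas lower (-0.83), where 8.78% of all genes were higher and 12.6% lower. Cxcl16 (0.93), Icam1 (1.08) and Myo1g (1.05) had the lowest adjusted p. The median of all genes in this comparison was -0.20, and the list values were not computed after median-of-ratios scaling. The NF-kB list, to which Relb belongs by function, had a median near 0 in both models. Of its 20 genes, Tnfrsf1b (0.90) and Tnfrsf11a (1.12) passed after 2 doses, and Tnfrsf1b (0.92) passed in the PD-1cKO model.

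The receptors and lymphoid genes around the chemokines were mostly low. Ccr4, the receptor of CCL17 and CCL22, and Ackr4, the scavenger of the CCR7 ligands, were under the limit for the test in both models, while Ccr8 was at 2.05 (SE 0.50, adjusted p = 0.0147) after 2 doses and passed in the PD-1cKO model (1.28, SE 0.28, adjusted p = 0.00219). The lymphotoxin gene Ltb, an inducer of Ccl21 in lymphoid organs, rose by 2.45 (SE 0.40, adjusted p = 0.00235) after 2 doses and by 1.82 (SE 0.39, adjusted p = 0.00214) in the PD-1cKO model, and Tnfsf14 rose by 1.499 and 1.26.

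Markers of other antigen-presenting cells moved as well. After 2 doses, 6 of 8 type 1 conventional dendritic cell markers (Irf8, 1.58, Cadm1, 1.49, and Xcr1, 1.98, had the lowest adjusted p), 3 of 5 type 2 markers (Sirpa, Irf4 and Clec10a) and 5 of 6 macrophage markers passed as higher. In the PD-1cKO model 2 of 7, 3 of 5 and 4 of 6 did. Itgax was the pan-dendritic gene that passed in both (1.19 and 0.97), whereas Zbtb46, which dendritic cells share with endothelium, was at -0.02 (adjusted p = 0.936) and -0.14 (adjusted p = 0.354). In the PD-1cKO model the T cell genes Cd3e, Cd3d, Cd8a and Cd4 and the fibroblast gene Col1a1 (1.68) also passed as higher, while Dcn, Pdgfra and Pdgfrb did not pass. After 2 doses, naive or central memory T cell markers summed to 24.5 to 34.0 FPKM in treated and 24.9 to 32.6 FPKM in isotype tumors. Cultured MC-38 held these markers at 17.5 to 19.5 FPKM. Of other lists after 2 doses, blood endothelium had 1 of 3 genes past the limit (Pecam1, 1.496). Plasmacytoid and Langerhans cells, fibroblasts and keratinocytes had none. The keratin genes listed for epithelial carcinoma lines (Krt8, Krt18 and Krt19) had none either. They summed to only 0.413 to 0.487 FPKM in cultured MC-38, so they do not mark this line or its share of a tumor. The part of each cell type in the levels of Ccr7, Ccl22 and Cd83 was not tested.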

How the data were processed

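Bulk RNA was sequenced from 46 samples in 8 groups taken from the labels. The authors prepared stranded total RNA libraries depleted of ribosomal RNA, read paired ends of 50 bases, aligned them with the OSA aligner of Omicsoft Array Studio to mouse build 38 with Ensembl genes, and deposited FPKM. Counts were not used here, so the depth of each library is unknown, and precision rests on the spread between samples. Rows were matched by identifier to GENCODE M21 (48435 of 48795).

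Values were taken as log2(FPKM + 0.1). Genes averaging 0.5 FPKM or more in any group of the fit were tested with limma 3.58.1 in R 4.3.3 (lmFit, eBayes with a trend) on the groups compared, and p-values were adjusted over all genes tested (Benjamini-Hochberg). A gene passed at an adjusted p under 0.01. Fold changes are on this log2 scale, which understates low genes. Correlations used 100000 permutations within groups in Python 3.11.15. Both scripts were tested on simulated data. No 2 samples held identical values.

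The 8 genes and the lists were chosen with earlier results of these data known. The text names all 8 genes, up to 3 tested genes with the lowest adjusted p from a list, any called against its list, defining markers, and the 5 genes with the highest r to Ccr7, Ccl22, Ccl21a and Fscn1. The isotype 2-dose tumors entered the antibody, culture and baseline comparisons, which thus share samples. Alternatives were another pseudocount, other filters, median-of-ratios scaling, 1 fit of all groups, the replicate block, other thresholds, the run of sample identifiers and leaving out each replicate. The sum over the Ccl21a copies, the values within runs and the most alike genes without 1 tumor were added after seeing the data. Group labels of PD-1cKO and WT tumors were taken as given. Some results of the lists are not reported here.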

Additional observations from a re-analysis of the deposited data

Results flagged for a closer look

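Of 48 sets of values (8 genes in 6 groups of 5 or 10 tumors), 6 held a tumor that stood apart from the others of its group by Dixon's criterion at 95% on log2(FPKM + 0.1), where chance gives about 1 in 20. The isotype 1 dose replicate 1 tumor, the one rich in mitochondrial RNA, was the lowest for 3 genes: Ccr7 was listed at 0 FPKM, Fscn1 was at 43.8 FPKM and Relb was at 4.01 FPKM. Among PD-1 Ab-treated tumors of the 1-dose group, replicate 4 was the highest for Ccr7 at 3.01 FPKM, and replicate 5 was the lowest for Ccl19, listed at 0 FPKM. Among WT tumors replicate 8 was the lowest for Cd83 at 4.64 FPKM. Replicate 5 of the PD-1 Ab-treated 2-dose group was the lowest of its group for every gene but Fscn1 and Relb. It did not reach the criterion for any gene.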

How the results depend on the processing

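The count of genes past the limit after 2 doses (2 of 8) was 0 with no filter, 0 with the replicate block and 5 at an adjusted p under 0.05, and it ran from 0 to 4 when 1 tumor was left out, reaching 4 without PD-1 Ab-treated replicate 5. For PD-1cKO against WT the count of 0 became 2 under median-of-ratios scaling (Ccl22 and Cd83), 1 in a fit of all groups and 4 at an adjusted p under 0.05, and ran from 0 to 1 when 1 tumor was left out (Cd83 without PD-1cKO replicates 2, 3 or 9, Ccl22 without replicate 10). Baseline against culture gave 2 in place of 4 in a fit of all groups and with a 2-fold limit. Baseline against isotype gave 1 in a fit of all groups and 2 at an adjusted p under 0.05 in place of 0, and 0 to 1 when 1 tumor was left out (1 without baseline replicate 2). The share of all genes passing was not computed for these alternatives, nor for those relative to leukocyte or pan-dendritic genes. These counts show only how stable the calls were.

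Relative to leukocyte genes, a pseudocount of 1 gave 5 in place of 3 after 2 doses and 1 in place of 0 for PD-1cKO, which no filter also made 1. Relative to pan-dendritic genes a pseudocount of 1 gave 1 for PD-1cKO. Leaving out 1 tumor gave 3 to 5 after 2 doses relative to pan-dendritic genes (5 without treated replicate 5) and 0 to 1 for PD-1cKO by either measure (1 without PD-1cKO replicates 2, 3 or 9, and relative to leukocyte genes also without PD-1cKO replicate 10 or WT replicate 5). The pairs correlated were 4 in place of 7 without the PD-1cKO and WT groups. The other counts stayed within 1.5 times, 215 of 254 in all.

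Directions turned only for differences that did not pass. After 1 dose Ccl19 was -0.037 with a pseudocount of 1, and Fscn1 and Relb were -0.084 and -0.12 under median-of-ratios scaling. Under that scaling Ccl17 was 0.15 for PD-1cKO, Fscn1 was -0.0015 for baseline against isotype, Relb was 0.084 for the difference between doses and Fscn1 -0.10 for that between models. The difference between doses was 0.24 for Ccr7 with a pseudocount of 1, and that between models was -0.85 for Ccl21a with the run of sample identifiers as covariate. With 1 tumor left out, values ran from -0.081 to 0.64 for Ccl17 after 2 doses. After 1 dose they ran from -0.29 to 0.38 for Fscn1, from -0.53 to 0.62 for Ccl19, from -0.24 to 1.22 for Ccl21a and from -0.37 to 0.37 for Relb. They ran from -0.21 to 0.072 for Ccl17 in PD-1cKO, from -0.038 to 0.11 for Fscn1 in baseline against isotype, from -0.44 to 0.58 for Ccr7 and from -0.46 to 0.27 for Relb between doses, and from -0.032 to 0.19 for Fscn1 between models.

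Samples with the same number did not deviate together: the correlation was over 0.1 in 0 of 5 pairs after 2 doses, 1 of 5 after 1 dose and 1 of 10 in the PD-1cKO model. With the replicate block, Ccl21a had an adjusted p of 0.0117 and Cd83 of 0.0302 after 2 doses. The causes of these changes were not tested. Since the depth is unknown, the number of reads behind low values such as those of Ccl19 and Ccl17 cannot be given.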
